A study of Drosophila melanogaster with 8 samples.

Results

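The cytosolic ribosomal protein genes encode the proteins of the ribosome outside mitochondria. They were chosen by symbol in the authors' deposited comparison table: every gene named RpL, RpS or RpLP with a number, plus sta and sop, and no mitochondrial ribosomal protein or RNA polymerase gene. Because sop is an older symbol of RpS2, it added no further gene. The rule gave 86 of the 17559 genes in the count table. Of these, 48 encode core proteins of the large subunit and 34 core proteins of the small subunit. A further 2, RpL24-like and RpLP0-like, are relatives of large-subunit proteins that act in ribosome assembly, and 2, RpS5b and RpS19b, are small-subunit paralogs known from the germline. In the BDGP6.54 annotation 17 members lie on chromosome arm 2L, 19 on 2R, 14 on 3L, 20 on 3R, 1 on chromosome 4 and 15 on X.

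RNA came from whole guts of adult Drosophila melanogaster females. In the LamDm0 group (n = 4 libraries), the B-type lamin LamDm0, a protein of the nuclear lamina, was overexpressed from a UAS transgene in enterocytes (EC), the absorptive cells of the midgut. In the control group (n = 4), GFP was expressed from UAS, and the genotype is otherwise labelled wild type. In both groups flies were raised at 18 °C, and females 2 to 4 days old spent 2 days at 29 °C before RNA was taken. The series title places GFP expression in enterocytes too. The driver line is not given in the sources used here, and the libraries hold RNA of every cell type of the gut, so that fewer cells of a type and less RNA per cell cannot be told apart.

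Each ribosome contains 1 large and 1 small subunit, and the subunits' proteins are made in nearly equal numbers and assembled with ribosomal RNA in the nucleolus. In animals, translation of ribosomal protein mRNAs depends on TOR signalling, and their transcription on growth regulators such as Myc. In Drosophila, loss of 1 copy of many of these genes gives the Minute phenotype of slow development and thin bristles, and Minute cells raise the transcription factor Xrp1 and are eliminated beside wild-type neighbours. In the adult gut, protein synthesis supports the digestive enzymes that enterocytes secrete and the growth of new cells from intestinal stem cells.

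The libraries held 22737593 to 36022790 counts in LamDm0 guts and 19720070 to 23347139 counts in control guts. Lam, the gene encoding LamDm0, had 4190, 4647, 2894 and 2702 CPM (counts per 1000000 of a library's TMM-scaled total, a scaling by the trimmed mean ratio between libraries) in LamDm0 libraries 1 to 4, against 18.5, 20.2, 16.2 and 18.3 CPM in control libraries 1 to 4, as the labels state. The log2 fold change was 7.62 ± 0.28 (SE). Libraries stood apart within groups over all genes. The chi-square per degree of freedom between a pair of libraries was 48.4 for LamDm0 3 and 4, 28.4 for control 1 and 2, and 89.3 for control 3 and 4, and 192 to 406 for every other pair of one group. No pair agreed within sampling noise, and no lane, day or batch is labelled. Whether LamDm0 3 and 4, or the control pairs, share a day or a culture is therefore not known, and results are given below with and without them. Mitochondrially encoded transcripts took 21.8%, 10.6%, 8.53% and 10.3% of counts in LamDm0 libraries 1 to 4, against 5.55%, 7.85%, 15.2% and 13.8% in control libraries 1 to 4. Removing these genes from the table left 1 ribosomal protein gene called lower and a median log2 fold change of -0.27, with the test described below.

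Ribosomal protein transcripts took a large share of gut mRNA in both groups. Their share of all counts was 11.3%, 11.3%, 7.70% and 8.30% in LamDm0 libraries 1 to 4, against 12.4%, 11.99%, 10.2% and 8.495% in control libraries 1 to 4. The group means were 9.64% ± 1.91 in LamDm0 guts and 10.8% ± 1.81 in control guts (SD, n = 4 each). The groups overlapped, and the 2 lowest libraries were LamDm0 3 and 4. After TMM scaling the summed level was 119381, 122384, 63919 and 68055 CPM in LamDm0 libraries 1 to 4, against 124821, 120343, 116998 and 94158 CPM in control libraries 1 to 4. On that scale LamDm0 1 and 2 lay within the control range and LamDm0 3 and 4 lay below every control library.

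**Figure D1:**
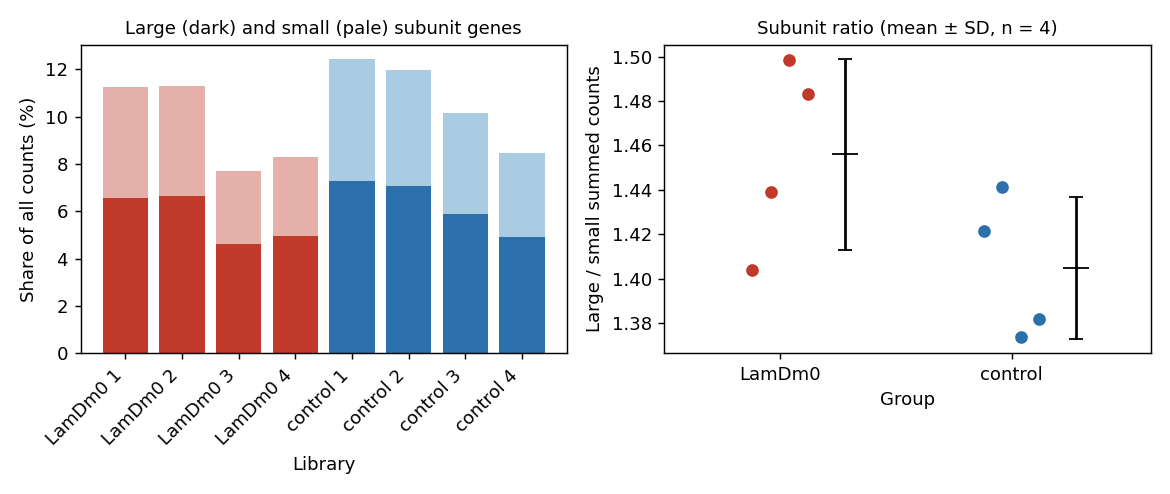
Left, share of all counts (%) taken by large-subunit (dark) and small-subunit (pale) genes in each library, LamDm0 in red and control in blue; right, the ratio of summed large-subunit to summed small-subunit counts per library, with mean and SD (n = 4 each), on an axis that does not start at 0. The combined share was lowest in LamDm0 3 (7.70%) and LamDm0 4 (8.30%), and the subunit ratios of the groups overlapped.

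Among the core members, levels per kilobase of transcript differed widely. The median was 1724 CPM per kb over the 82 core genes, with a range of 22.3 to 5822 CPM per kb. RpL41, which encodes a very short basic peptide of the large subunit from a transcript of 320 nt, stood highest, with 5561 CPM per kb in LamDm0 guts and 6083 CPM per kb in control guts. RpS23, a protein of the decoding centre, followed with 3012 CPM per kb in LamDm0 guts and 3349 CPM per kb in control guts. RpL27A averaged 2638 CPM per kb in LamDm0 guts and 3283 CPM per kb in control guts. RpS15Ab, RpL34a and RpL22 were the lowest. RpS15Ab, a second copy of RpS15Aa, averaged 21.7 CPM per kb in LamDm0 guts and 22.8 CPM per kb in control guts. RpL34a averaged 201 CPM per kb in LamDm0 guts and 196 CPM per kb in control guts. RpL22, a large-subunit protein with a long N-terminal extension in Drosophila, averaged 353 CPM per kb in LamDm0 guts and 482 CPM per kb in control guts. None of these 6 genes passed the test between groups described next.

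Of the 84 members with enough counts to be tested, 1 was lower and 0 were higher in LamDm0 guts at an adjusted p under 0.05 (quasi-likelihood F-test of edgeR, Benjamini-Hochberg adjusted over 8794 genes). Over all genes tested, 8.03% were called, 3.26% lower and 4.76% higher. The members' share called lower was 1.19%, and its difference from the background rests on few genes and was not tested. At an unadjusted p under 0.05 there were 3 members. DESeq2 called 2 members lower, against 4.9% of its 12990 genes, weakly counted ones included. In either direction DESeq2 called 1203 of the 8794 genes tested in edgeR. The authors' deposited table held an adjusted p for all 86 members and called 2 lower and 0 higher, against 5.83% lower and 6.39% higher of all its genes. The fitted differences leaned the same way without passing the test. The log2 fold change was negative for 82 of the 84, with a median of -0.25 beside a median of 0.01 over all genes tested. The standard error of a core member ranged from 0.16 to 0.43 on the log2 scale, with a median of 0.24, against a median of 0.17 over all genes tested. RpL34a and RpL38 were the 2 members with a positive value, each 0.04.

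**Figure D2:**
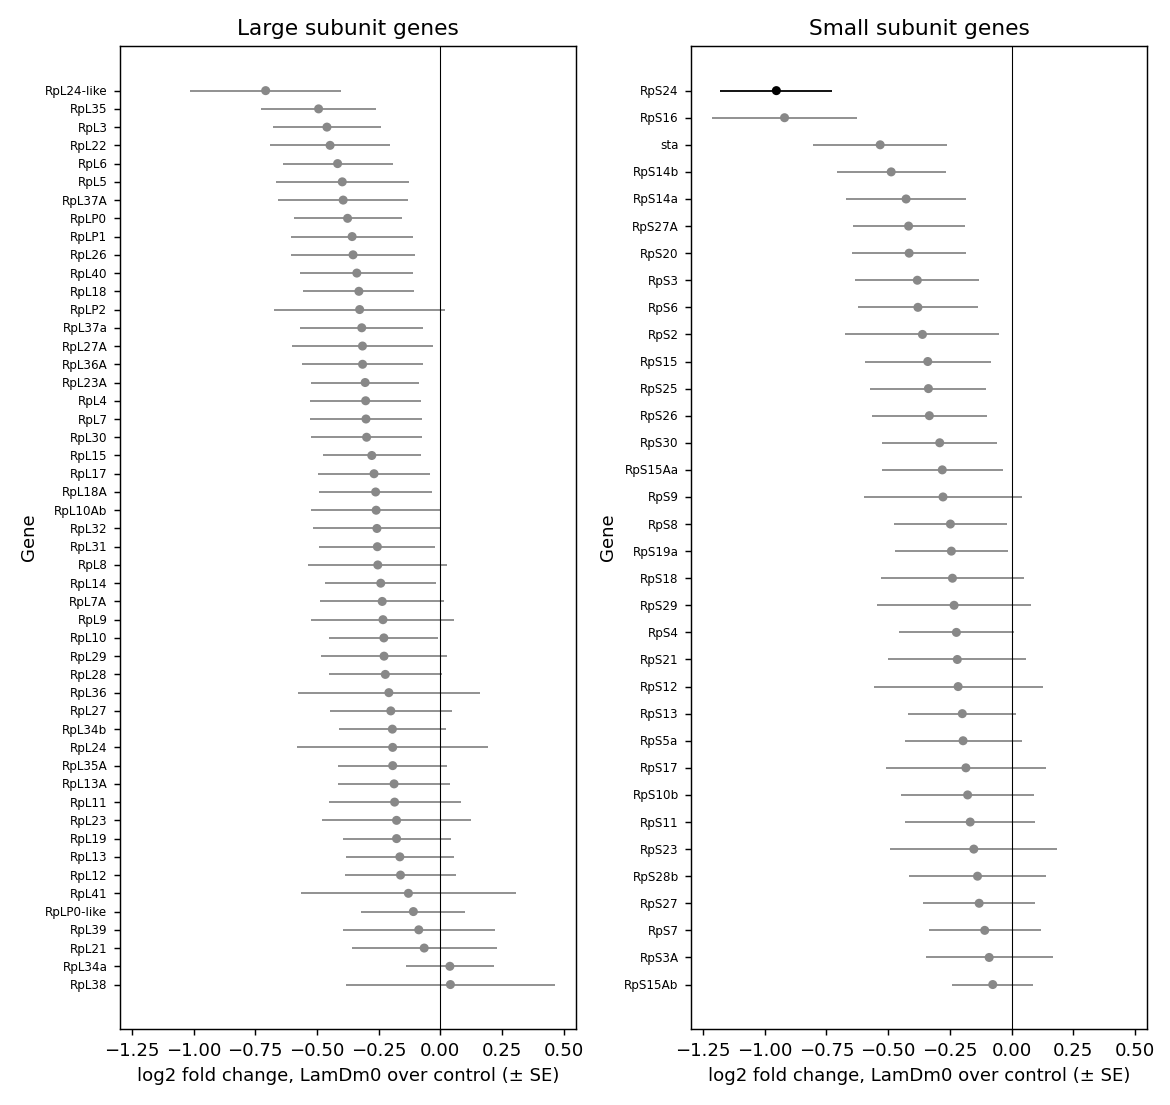
Fitted log2 fold change (LamDm0 over control, ± SE, 4 libraries each) of every tested large-subunit gene, left, and small-subunit gene, right, with assembly copies included. The gene past the threshold is black and the others are grey; RpS24 and RpS16 stand at the low end, at -0.95 and -0.92, and most other members lie between -0.5 and 0.

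The direction rested on LamDm0 3 and 4. Each of the 82 core members was lower in both of these libraries than in both LamDm0 1 and LamDm0 2, and for 81 of them both were also below every control library. The lowest library was LamDm0 3 for 75 core members and LamDm0 4 for the other 7. The ratio of LamDm0 1 and 2 to LamDm0 3 and 4 ranged from 1.35 for RpL4 to 3.03 for RpL41, with a median of 1.73, whereas the same ratio over all genes tested had a median of 1.01. Without LamDm0 3 and 4 edgeR called no member, 4 had an unadjusted p under 0.05, and the median log2 fold change was 0.09, with 25 of 84 members negative; 1.51% of all genes were called lower in that fit. Without LamDm0 1 and 2, with 2 LamDm0 libraries against 4 control libraries, 44 of 84 members (52.4%) were called lower by the quasi-likelihood F-test of edgeR, Benjamini-Hochberg adjusted, against 4.72% of all genes in that fit, and the median was -0.74. That fit keeps the 2 LamDm0 libraries in which core members were lowest, so its calls follow from that choice. They cannot stand as a test of LamDm0 against control. LamDm0 1 and 2 both lay within the control range for 45 of the 82 core members.

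As a description of that choice of libraries only, the members called lower without LamDm0 1 and 2 came from both subunits. They also came from several parts of the ribosome. They included RpS23, RpS2, RpS3 and RpS9, small-subunit proteins at or near the decoding centre and the mRNA entry site, with log2 fold changes of -0.93, -1.07, -0.88 and -1.02 in that fit. RpL5 and RpL11, which bind the 5S ribosomal RNA as a particle, had -0.92 and -0.76. RpL17 and RpL39, which line the tunnel through which the new protein leaves, had -0.69 and -0.80, and RpLP2, an acidic protein of the stalk that recruits elongation factors, had -1.16. With all 8 libraries none of these 9 genes passed the test. RpL4 of the tunnel and RpLP0 and RpLP1 of the stalk were not called in the fit without LamDm0 1 and 2.

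**Figure D3:**
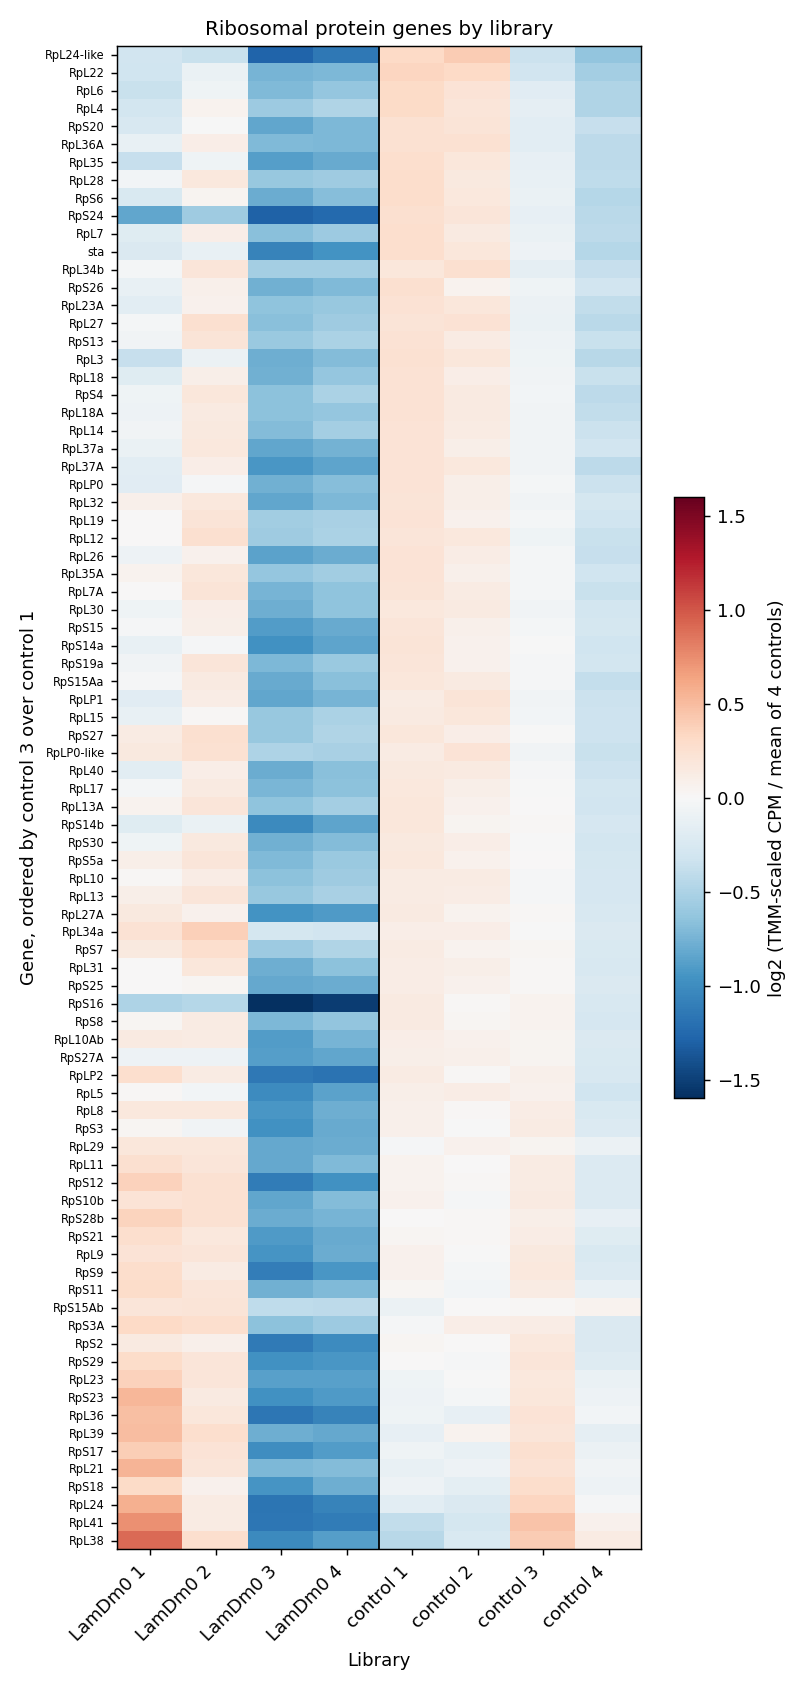
TMM-scaled CPM of each tested member in each library, as log2 of its ratio to the mean of the 4 control libraries, with LamDm0 libraries left of the line and control libraries right of it. Rows are ordered by the ratio of control 3 to control 1. LamDm0 3 and 4 are the bluest columns, below every control library for 81 of 82 core genes, and LamDm0 1 and 2 are blue at RpS24 and RpS16.

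RpS24 and RpS16 departed from the other members in that LamDm0 1 and 2 were low as well. RpS24 encodes a small-subunit protein that takes part in ribosomal RNA processing in human cells. It had 878, 1049, 634 and 660 CPM in LamDm0 libraries 1 to 4, against 1862, 1789, 1424 and 1160 CPM in control libraries 1 to 4. Every LamDm0 library lay below every control library. The means were 805 ± 196 CPM in LamDm0 guts and 1559 ± 328 CPM in control guts (SD, n = 4 each). RpS24 was 1.94-fold lower (log2 fold change -0.95 ± 0.23, adjusted p = 0.037, quasi-likelihood F-test of edgeR, Benjamini-Hochberg adjusted). The call held without control 4 or LamDm0 2. It was lost without control 1, 2 or 3 or LamDm0 1, 3 or 4, with log2 fold changes of -0.997 to -0.85 and adjusted p of 0.063 to 0.103 in edgeR. It was also lost without LamDm0 3 and 4 (-0.69) and without control 1 and 2 (-0.67).

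RpS16, whose protein sits in the head of the small subunit with its tail reaching the P-site transfer RNA, came nearest to the threshold from the other side. It had 1524, 1563, 705 and 752 CPM in LamDm0 libraries 1 to 4, against 2384, 2173, 2239 and 1799 CPM in control libraries 1 to 4. These groups did not overlap either. The means were 1136 ± 471 CPM in LamDm0 guts and 2149 ± 249 CPM in control guts (SD, n = 4 each). The log2 fold change was -0.92 ± 0.29, with an adjusted p of 0.097 by edgeR and of 0.014 by DESeq2. In the authors' deposited table the log2 fold changes were -0.91 for RpS24 and -0.84 for RpS16, and both passed 0.05. RpS24 and RpS16 were the only 2 of the 84 tested members whose groups did not overlap, both with LamDm0 below. Over all genes tested, 17.3% did not overlap, 7.38% with LamDm0 below.

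RpS16 and RpS24 are neighbours on the right arm of chromosome 2. In the BDGP6.54 annotation RpS16 spans chr2R:22605745-22607995 on the plus strand and RpS24 chr2R:22640526-22641419 on the minus strand, within 35.7 kb of each other from end to end. Between them lie 7 tested genes, of which 1 is a small nucleolar RNA gene inside RpS16. Of these 7, 6 had a negative log2 fold change, 4 had every LamDm0 library below every control library and 2 were called lower, with a median of -0.34. Cdk9, the kinase of the elongation factor P-TEFb that releases paused RNA polymerase II, had 8.19, 9.62, 9.72 and 8.81 CPM in LamDm0 libraries 1 to 4, against 12.3, 12.7, 12.2 and 14.1 CPM in control libraries 1 to 4. All 4 LamDm0 values were below all 4 control values (log2 fold change -0.50 ± 0.10, adjusted p = 0.021, edgeR). CG17807 beside it was called lower too, at -0.63 ± 0.15 (adjusted p = 0.036, edgeR). Without LamDm0 3 and 4 the log2 fold change was -0.52 for Cdk9 (adjusted p = 0.073, edgeR) and -0.39 for CG17807 (adjusted p = 0.11, edgeR), neither past the test, and without LamDm0 1 and 2 it was -0.47 for Cdk9 and -0.89 for CG17807. The call of Cdk9 was also lost without control 1 (-0.52), control 2 (-0.50) or LamDm0 4 (-0.48), without either pair of control libraries (-0.52 and -0.46) and with library totals as the scaling (-0.30). That of CG17807 was lost without control 1, 2 or 3 or LamDm0 3 or 4 (-0.63 to -0.53), without either pair of control libraries (-0.58 and -0.67), with library totals (-0.47) and among genes averaging 10 CPM or more (-0.60).

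Outside this stretch most of the nearest tested genes on both sides were negative too, few of them called. Beyond RpS24, CG3746 (log2 fold change -0.80 ± 0.35), CG34445 (-0.60 ± 0.38), CG30196 (-0.86 ± 0.42), CG34446 (-0.31 ± 0.48) and CG30195 (-0.09 ± 0.46) averaged a few CPM or less and did not pass the test. Before RpS16, px (-0.33 ± 0.11, groups not overlapping) and CG4269 (-0.70 ± 0.58) did not pass, and gas and dnr1 lay at 0.01. Ugt317A1, the first tested gene beyond RpS24, had a log2 fold change of 0.13 ± 0.34, and its groups overlapped. CG4294, next to RpS16 on the outer side, averaged 25.5 ± 1.30 CPM in LamDm0 guts and 36.1 ± 3.37 CPM in control guts (adjusted p = 0.018, edgeR), a call lost without LamDm0 3 (log2 fold change -0.47), LamDm0 4 (-0.50) or both (-0.45), without either pair of control libraries (-0.55 and -0.44) and with library totals as the scaling (-0.31). CG2852, a cyclophilin gene beyond RpS24, averaged 172 ± 12.5 CPM in LamDm0 guts and 315 ± 69.5 CPM in control guts, 1.84-fold lower (adjusted p = 0.015, edgeR), a call that held without any 1 library and was lost without LamDm0 3 and 4 (log2 fold change -0.78, adjusted p = 0.096, edgeR). Further out, the cytochrome P450 gene Cyp6d2 went the other way, with 117 ± 34.6 CPM in LamDm0 guts and 14.3 ± 5.60 CPM in control guts (log2 fold change 3.03 ± 0.31, adjusted p = 0.00099, edgeR). For each of 8600 genes the median log2 fold change of the 5 tested genes on either side was computed. RpS16 had -0.37 and RpS24 -0.34, the lowest of the members with such neighbours, and 1.15% and 1.59% of all genes had a neighbour median that low or lower. The windows overlap, and they were looked at after the values of RpS16 and RpS24 were known.

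**Figure D4:**
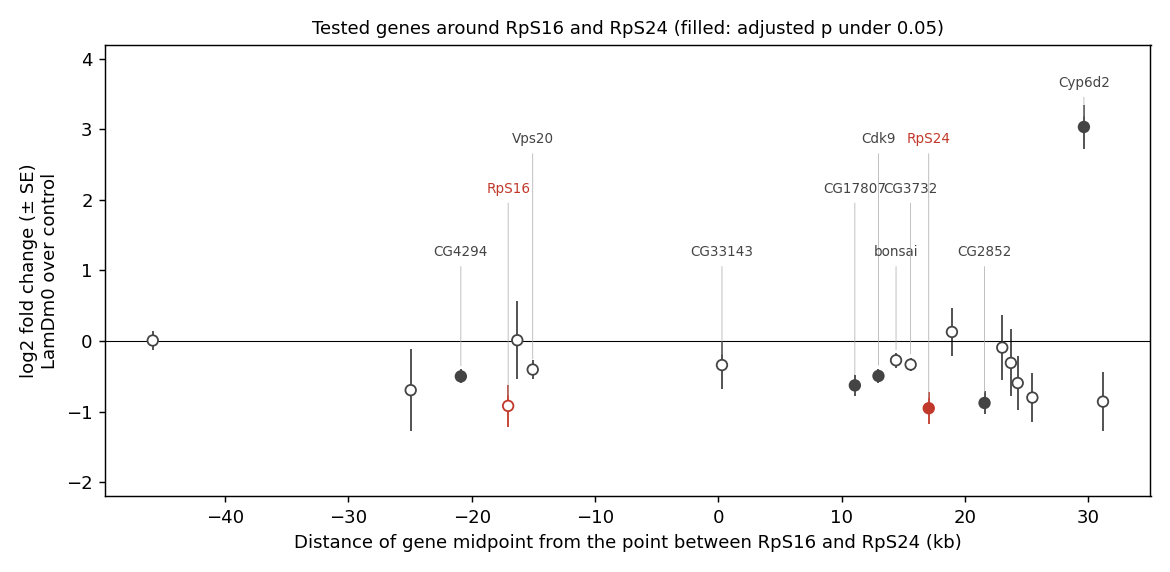
Fitted log2 fold change (LamDm0 over control, ± SE, n = 4 libraries each) of tested genes by the distance of their midpoint, in kb, from the point midway between RpS16 and RpS24. Both members are red and other genes grey, filled where the adjusted p is under 0.05; 6 of the 7 genes between them are below 0, and Cyp6d2 stands at 3.03.

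The ratio of summed large-subunit to summed small-subunit counts was 1.40, 1.44, 1.498 and 1.48 in LamDm0 libraries 1 to 4, against 1.42, 1.44, 1.37 and 1.38 in control libraries 1 to 4. It averaged 1.46 ± 0.043 in LamDm0 guts and 1.40 ± 0.032 in control guts (SD, n = 4 each), and the groups overlapped. LamDm0 3 and 4 were above every control library, and LamDm0 1 and 2 lay within the control range. The small-subunit sum includes RpS16 and RpS24, which averaged 1136 and 805 CPM in LamDm0 guts and 2149 and 1559 CPM in control guts. Their lower levels by themselves raise the ratio in LamDm0 guts. A ratio without these genes is not given, so a difference between the subunits as wholes cannot be read from it. The median log2 fold change was -0.26 for the 48 large-subunit core genes and -0.25 for the 34 small-subunit core genes. Without LamDm0 1 and 2, 21 of the 48 large-subunit and 23 of the 34 small-subunit core genes were called lower. The LamDm0 libraries kept in that fit are the ones lowest for these genes, and a difference between the subunits was not tested.

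By role, the 3 proteins of the stalk lay close to one another, with log2 fold changes of -0.38 ± 0.22 for RpLP0, -0.36 ± 0.25 for RpLP1 and -0.33 ± 0.35 for RpLP2. In the exit tunnel, RpL4 had -0.30 ± 0.22, RpL17 -0.27 ± 0.23 and RpL39 -0.09 ± 0.31. RpL3, at the peptidyl transferase centre, had -0.46 ± 0.22, and RpL10, among the last proteins to join the large subunit, had -0.23 ± 0.22. None of these passed the test. The genes whose proteins are made as fusions to ubiquitin or a ubiquitin-like domain, RpS27A, RpL40 and RpS30, had -0.42 ± 0.23, -0.34 ± 0.23 and -0.29 ± 0.23. RpS6, whose phosphorylation by S6 kinase is a common readout of TOR activity, ranged from 1012 to 1812 CPM in LamDm0 guts and from 1281 to 2140 CPM in control guts, and the groups overlapped. RpS12, which in Drosophila is needed for cell competition and for the rise of Xrp1 in Minute cells, ranged from 581 to 1625 CPM in LamDm0 guts and from 1079 to 1375 CPM in control guts. The small-subunit gene sta had the third lowest value of the core members, -0.53 ± 0.27 (adjusted p = 0.28, edgeR), with 2068, 2231, 1152 and 1248 CPM in LamDm0 libraries 1 to 4, against 2907, 2737, 2280 and 1763 CPM in control libraries 1 to 4.

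RpL24-like and RpLP0-like resemble factors that hold the place of a ribosomal protein in nuclear precursors of the large subunit in yeast. RpL24-like had 105, 101, 53.6 and 58.7 CPM in LamDm0 libraries 1 to 4, against 162, 172, 102 and 84.0 CPM in control libraries 1 to 4. LamDm0 1 and 2 lay near control 3 and above control 4, so the groups overlapped. Its log2 fold change was -0.71 ± 0.30 (adjusted p = 0.20, edgeR). RpLP0-like had -0.11 ± 0.21. An exon of RpL24-like overlaps one of Dtd on the opposite strand, and whether counting used strand is not given in the sources used here.

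Several Drosophila ribosomal proteins are encoded by a pair of genes, 1 of them often most active in the germline. Of 13 pairs listed, 4 had a partner with 0 counts in all 8 libraries, RpL7-like, RpL10Aa, RpL22-like and RpS28a. A count of 0 in a library allows a level of up to 0.083 to 0.152 CPM, for counting error alone. RpL37-2 and RpS10a had 1 count each, in a control library. RpS5b had 15 counts over the LamDm0 libraries and 22 over the control libraries, and RpS19b had 9 over the LamDm0 libraries and 11 over the control libraries, so neither entered the test. Their partners RpS5a and RpS19a averaged 8896 and 12481 times as many counts in LamDm0 libraries, against 5565 and 7563 times in control libraries, ratios that rest on these few counts. The germline marker list summed to 22.8 to 30.2 CPM in LamDm0 guts and 17.7 to 25.2 CPM in control guts, most of it from gcl and bru1, which are also used outside the germline. Its germline-restricted markers nos, osk and bcd were near 0, and zpg and cup were at 0 in every library. Other members were detected at low levels, with lower values for orb, aub, spn-E and piwi. In LamDm0 guts grk averaged 1.79 CPM, AGO3 1.55 CPM and otu 1.02 CPM, against 2.00, 1.76 and 0.76 CPM in control guts.

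The ratio between the genes of a pair could be compared in 7 pairs, within each library and so free of scaling. None of the 7 had an adjusted p under 0.05. With 4 against 4 libraries a single pair could not have reached it whatever its values, so this does not show equal ratios. The pairs RpL34a to RpL34b and RpLP0 to RpLP0-like reached the smallest p that 4 against 4 libraries allow, 0.0286 before and 0.10 after Benjamini-Hochberg adjustment over the 7 pairs (two-sided exact permutation test). The log2 ratio of RpL34a to RpL34b was -1.94, -2.01, -1.94 and -1.97 in LamDm0 libraries 1 to 4, against -2.28, -2.35, -2.06 and -2.06 in control libraries 1 to 4. Every LamDm0 value was above every control value, so that RpL34b had 3.91 times the counts of RpL34a in LamDm0 guts and 4.55 times in control guts. The log2 ratio of RpLP0 to RpLP0-like averaged 5.62 ± 0.08 in LamDm0 guts and 5.88 ± 0.09 in control guts (SD, n = 4 each), again without overlap.

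For the other pairs the groups overlapped. The ratio of RpL24 to RpL24-like averaged 3.92 ± 0.37 in LamDm0 guts and 3.58 ± 0.71 in control guts on the log2 scale (SD, n = 4 each, exact permutation p = 0.40). RpS15Aa to RpS15Ab averaged 5.56 ± 0.14 in LamDm0 guts and 5.77 ± 0.31 in control guts (exact permutation p = 0.26). RpS14a and RpS14b, tandem copies that encode the same protein, averaged a log2 ratio of 1.21 ± 0.04 in LamDm0 guts and 1.15 ± 0.04 in control guts (exact permutation p = 0.11). The division of reads between these 2 copies is uncertain at a read length of 50 nt.

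The members also differed from one another in a way that did not follow the groups. Between control 3 and control 1, the log2 ratio across core members ran from -0.65 for RpL22 to 0.86 for RpL38. Between LamDm0 1 and LamDm0 2 it ran from -0.35 for RpL4 to 0.63 for RpL38. These 2 ratios share no library, and across the 82 core members they had a Pearson r of 0.94 and a Spearman rho of 0.90. Across the 5449 genes averaging 10 CPM or more, the same ratios had a Pearson r of 0.25 and a Spearman rho of 0.18. Genes are not independent replicates, and these are descriptions without a test.

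At one end of this order stood RpL38, RpL41, RpL24, RpS18 and RpL21. RpL38 had 1446, 935, 384 and 422 CPM in LamDm0 libraries 1 to 4, against 567, 654, 1030 and 847 CPM in control libraries 1 to 4. LamDm0 1 was its highest library, LamDm0 2 lay within the control range, and LamDm0 3 and 4 lay below it. RpL41 had 3228, 2125, 870 and 895 CPM in LamDm0 libraries 1 to 4, against 1477, 1602, 2666 and 2041 CPM in control libraries 1 to 4, the same order of high and low libraries. At the other end stood RpL22, RpL6, RpL4, RpS20 and RpL36A. RpL22 had 424, 490, 318 and 322 CPM in LamDm0 libraries 1 to 4, against 671, 658, 427 and 362 CPM in control libraries 1 to 4. For this gene controls 1 and 2 were the highest libraries.

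The ratio of LamDm0 3 and 4 to LamDm0 1 and 2 ran along the same order, with a Pearson r of -0.86 against the ratio of control 3 to control 1 (n = 82 core members, no library shared). The 10 genes highest in control 3 relative to control 1 had a median 2.41-fold excess of LamDm0 1 and 2 over LamDm0 3 and 4, against 1.52-fold in the 10 lowest. None of those 10 highest genes had a small nucleolar RNA gene annotated within it, against 6 of the 10 lowest and 29 of the 82. Their median transcript length was 575 nt, against 796 nt in the 10 lowest, and over all 82 the Pearson r of length with the control ratio was -0.35 and the Spearman rho -0.22. The share of mitochondrially encoded transcripts was higher in control 3 than in control 1, and in LamDm0 1 than in LamDm0 2. Its part in this order was not tested.

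**Figure D5:**
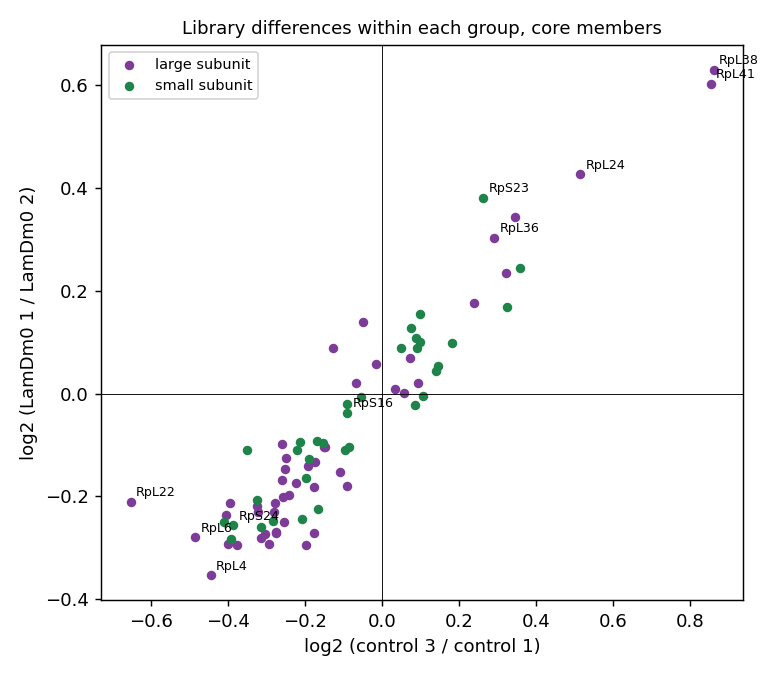
Each point is 1 of the 82 core members, large subunit purple and small subunit green. The horizontal axis is the log2 ratio of control 3 to control 1 and the vertical axis the log2 ratio of LamDm0 1 to LamDm0 2, both from TMM-scaled CPM; the points follow a rising line (Pearson r 0.94), from RpL22, RpL4 and RpL6 at the low end to RpL38 and RpL41 at the high end.

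Other genes of the translation machinery were taken as lists. The initiation list held 31 tested genes, among them the regulators Thor and Gcn2, and eIF6, which is also in the assembly list. Of the 31, 1 was higher and 0 lower in edgeR, where 8.03% of all genes tested were called in either direction. In that test 5 had an unadjusted p under 0.05. DESeq2 called 4 of the 31 in either direction, beside 1203 of the 8794 genes tested in edgeR. eIF2beta, a subunit of the factor that brings initiator transfer RNA, had 255, 272, 206 and 215 CPM in LamDm0 libraries 1 to 4, against 149, 152, 144 and 129 CPM in control libraries 1 to 4. All LamDm0 values exceeded all control values, and the fitted difference was 1.65-fold (adjusted p = 0.011, edgeR). The call held without any 1 library and was lost without control 1 and 2 (log2 fold change 0.80). Of 10 elongation and termination factors none passed the test, and 1 had an unadjusted p under 0.05 in edgeR, eEFSec, with an adjusted p of 0.13. DESeq2 called 0 of them. The median log2 fold change was -0.10 for the initiation list and -0.08 for elongation and termination factors.

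Of 25 ribosome assembly genes none passed edgeR's test and 1 passed DESeq2's, and 2 had an unadjusted p under 0.05. Their median log2 fold change was -0.21, with 18 of 25 negative. Rrp1, the one with the smallest p (log2 fold change 1.19 ± 0.37, adjusted p = 0.089, edgeR), encodes a DNA repair endonuclease and not an assembly factor. Of 7 ribosome quality control genes 1 was higher, and DESeq2 called 1. HBS1, the partner of Pelota in releasing stalled ribosomes, had 30.2, 37.0, 33.1 and 35.7 CPM in LamDm0 libraries 1 to 4, against 25.8, 22.3, 19.6 and 18.6 CPM in control libraries 1 to 4 (log2 fold change 0.66 ± 0.13, adjusted p = 0.017, edgeR), a call lost without LamDm0 4 (0.63), without LamDm0 3 and 4 (0.65) and without control 3 and 4 (0.50). Rack1, a protein bound to the small subunit, followed the ribosomal protein genes, with 1810, 2068, 1072 and 1169 CPM in LamDm0 libraries 1 to 4, against 2413, 2292, 2097 and 1618 CPM in control libraries 1 to 4. As for the core members, LamDm0 3 and 4 were its lowest libraries, and it was named after its values were seen.

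Among 22 regulators of ribosomal protein genes and of TOR signalling, 2 were higher and 2 lower in edgeR, beside 8.03% of all genes called. DESeq2 called 8 of the 22 in either direction, against 5.12% of all genes it called higher and 4.9% it called lower. Irbp18, the C/EBP-family partner of Xrp1, had 10.7, 11.5, 9.24 and 11.1 CPM in LamDm0 libraries 1 to 4, against 5.70, 5.75, 5.62 and 7.36 CPM in control libraries 1 to 4, 1.74-fold higher (adjusted p = 0.0079, edgeR). Xrp1 itself, named after its values were seen, averaged 870 ± 21.6 CPM in LamDm0 guts and 771 ± 10.02 CPM in control guts. Its groups did not overlap, but its log2 fold change of 0.17 ± 0.11 did not pass the test (adjusted p = 0.38, edgeR). The kinase Akt, upstream of TOR, was higher (0.46 ± 0.12, adjusted p = 0.047, edgeR). The insulin-responsive transcription factor foxo was lower (-0.54 ± 0.10, adjusted p = 0.016, edgeR), and so was chrb, a REDD-family inhibitor of TOR (-0.74 ± 0.16, adjusted p = 0.026, edgeR). The call of Akt was lost without any 1 of the 8 libraries (0.39 to 0.51), that of chrb without any control library or without LamDm0 3 or 4 (-0.78 to -0.72), and that of foxo without LamDm0 3 (-0.53), without LamDm0 1 and 2 (-0.50) and without LamDm0 3 and 4 (-0.57). That of Irbp18 held without any 1 library and was lost without control 1 and 2 (0.72). Just short of the threshold in edgeR were Rheb (-0.46 ± 0.12, adjusted p = 0.051), scyl (-0.49 ± 0.13, adjusted p = 0.052) and RagA-B (0.37 ± 0.10, adjusted p = 0.054). These genes were named after their values were seen. Myc had -0.20 ± 0.23 and Tor 0.05 ± 0.11. RNA levels of regulators do not measure TOR activity.

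Markers of the gut's cell types were read beside these results. Of 10 enterocyte markers, 2 were lower, Alp4 (log2 fold change -1.44 ± 0.34) and Amy-p (-1.21 ± 0.29), where 3.26% of all genes tested were called lower. The median of the list was -0.16, with 7 of the 10 negative. The 3 positive markers were pdm2 (0.71 ± 0.50), betaTry (0.38 ± 0.25) and mex1 (0.06 ± 0.15). The call of Alp4 was lost without control 1 or 4 or LamDm0 1, 2 or 3 (-1.45 to -1.24), and that of Amy-p without control 1 or 2 or LamDm0 1, 2 or 4 (-1.18 to -1.02). The enterocyte list summed to 29804 to 46488 CPM in LamDm0 guts and 36165 to 50058 CPM in control guts. No marker of stem cells and enteroblasts (8 tested), enteroendocrine cells (9), visceral muscle (9), Malpighian tubule (8), germline (5), fat body (5) or hemocytes (5) passed edgeR's test, with unadjusted p under 0.05 for 1, 2, 0, 3, 0, 2 and 1 of them in that order. DESeq2 called 1, 1, 0, 1, 0, 0 and 2 of them in the same order. Of the follicle cell markers 1 of 12 had enough counts to be tested and was higher, Cp18, at 0.61 CPM in LamDm0 guts and 0.14 CPM in control guts, a call that held only without LamDm0 4 among the 8 left-out libraries, and 5 of the 12 were at 0 in every library. The fat body list (9 genes, yolk protein genes among them, 1 at 0 in every library) summed to 1745, 1873, 1196 and 910 CPM in LamDm0 libraries 1 to 4, against 785, 704, 17.5 and 515 CPM in control libraries 1 to 4. Every LamDm0 sum was above every control sum, and LamDm0 3 and 4 lay between the control libraries and LamDm0 1 and 2. Its part in the ribosomal protein results was not tested.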

How the data were processed

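Counts of reads per gene in 8 libraries were deposited by the authors as whole numbers, taken as raw. Per the submitters' processing notes the build was BDGP6 and the tools TopHat2 2.0.13, HTSeq 0.6.0 and DESeq2 1.10.1. Per the labels' protocols, libraries came from 100 ng of RNA after poly(A) selection, with a kit that keeps strand, and gave single reads of 50 nt. How strand and multiply matching reads were handled in counting is not given in the sources used here. The authors' deposited comparison table gives log2 fold changes, p-values and adjusted p-values; its mean normalized signal column, named per the file headers, was not used.

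Members were found by symbol and joined to the counts by identifier, 81 matched to the Ensembl annotation of BDGP6.54 by identifier and 5 by symbol. RpL37a of the table is RpL37-1 in that annotation. The members and all lists were chosen with earlier results of these data known. Of 193 list symbols, 10 matched no gene and were not analysed here.

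All genes were filtered with filterByExpr, scaled by TMM and fitted without a block in edgeR 4.0.16 (R 4.3.3; quasi-likelihood F-test, two-sided, Benjamini-Hochberg over 8794 genes, threshold 0.05). Each SE is the fold change on the log2 scale over the root of its F value. Shares are of raw counts, and CPM use TMM scaling. Per-kb levels use the median coding transcript length. Paralog ratios used counts plus 0.5 and exact permutation tests over 70 splits. The design text calls the libraries biological repeats without naming animals or cultures, so p-values measure the spread between these libraries. In simulated counts for this comparison (8669 genes, 200 changed), 12.5% of genes changed 1.5-fold, 47.8% of those changed 2-fold and 87.9% of those changed 4-fold were called, and 5.77% of the calls were false. Alternatives were DESeq2 1.42.0, limma-voom (limma 3.58.1), other scalings and filters, a replicate block and left-out libraries. The text names Lam, each member past the threshold and those next to it, paralog pairs, the 3 highest and 3 lowest core members per kb, and up to 4 called genes per list (or the one with the smallest p). Members described by role were added to show the ribosome's parts.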

Additional observations from a re-analysis of the deposited data

Results flagged for a closer look

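In 2 cases a single library lay far from the other 3 of its group by Dixon's criterion, among 98 groups of 4 values examined, of which chance flags about 1 in 20. Irbp18 in control 4 was 7.36 CPM, above the other control libraries and below every LamDm0 library. The level of foxo in LamDm0 4 was 63.6 CPM, above the other LamDm0 libraries and below every control library. No ribosomal protein gene was flagged.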

How the results depend on the processing

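The count of 1 lower and 0 higher member stayed the same under other scalings, other filters on low counts and limma-voom, and the median log2 fold change of members stayed below that of all genes under each of these. DESeq2 called 2 lower (RpS16 and RpS24). Same-numbered libraries did not deviate together (correlations of -0.24, -0.14, -0.47 and -0.05), so the numbers were not taken as pairs, and a replicate block called 2 lower (RpL24-like and RpS24). Leaving out 1 library gave 0 to 1 lower. Without LamDm0 1 and 2, which keeps the LamDm0 libraries lowest for the members, it was 44 lower with a median of -0.74. It was 0 lower without LamDm0 3 and 4, without control 1 and 2, or with libraries summed in pairs. Each single-library setting leaves 3 libraries in a group and each pair setting 2, assumed to vary like the rest. Scaling by library totals raised the median of all genes to 0.20, left 75 of 84 members negative, and turned RpLP0-like to 0.025 and RpS15Ab to 0.078. Without LamDm0 3 and 4 the log2 fold change turned positive for RpL10Ab (0.15), RpL24 (0.38), RpS5a (0.16), RpS10b (0.24), RpS15Aa (0.073), RpS19a (0.083), RpS28b (0.31), RpL34b (0.091), RpLP0-like (0.21), RpS15Ab (0.21), RpL37a (0.045), RpL41 (0.47), RpS23 (0.36) and RpL27A (0.12). RpL34a turned negative without LamDm0 1 and 2 (-0.29) and without control 3 and 4 (-0.067). Without control 3 and 4, RpL24 (0.0044) and RpL41 (0.21) turned positive, as did RpL34b (0.065) and RpLP0-like (0.095) without control 1 and 2. Leaving out 1 library gave a range that crossed 0 for RpL24 (-0.57 to 0.026), RpL34a (-0.096 to 0.14), RpS28b (-0.35 to 0.028), RpLP0-like (-0.25 to 0.0056), RpS15Ab (-0.18 to 0.022), RpL41 (-0.59 to 0.097) and RpS23 (-0.48 to 0.040). The difference in log2 paralog ratio turned to -0.27 for RpL24 to RpL24-like and 0.0036 for RpS15Aa to RpS15Ab without control 1 and 2. None of these reversed values had passed the test; the cause was not tested. Akt was not called under 18 of its alternatives, chrb under 12, foxo under 7 and HBS1 under 5. Of the other genes named, a replicate block lost the calls of CG4294 (-0.50), CG17807 (-0.64), Cdk9 (-0.50), CG2852 (-0.86), Amy-p (-1.23) and Cp18 (2.12). Summing libraries in pairs lost these 6 and Alp4, and library totals lost Alp4 (-1.25) and Amy-p (-0.997) beside CG4294, CG17807 and Cdk9. Cyp6d2 was called under every alternative run.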
